A study of Mus musculus with 8 samples.

Results

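The genes described are those of the cytosolic ribosomal proteins, chosen by their symbol alone: every row named as a protein of the large subunit (Rpl and Rplp symbols) or of the small subunit (Rps symbols and Rpsa), including paralogs whose symbol ends in l, l1 or al. The pattern held for 86 of 47628 named gene rows, 53 of the large subunit and 33 of the small subunit. GENCODE vM21 annotates 83 of them as protein coding and 3, Rps4l, Rps12l1 and Rpl6l, as processed pseudogenes. The tables come from RNA sequencing of whole cochleae of 4 wild-type (WT) mice and 4 heterozygous Opa1+/- mice, 1 library per mouse, named as in the sample titles: WT_4, WT_5, WT_6 and WT_8, and Het_2, Het_7, Het_484 and Het_491 for the Opa1+/- mice. Opa1+/- mice carry 1 knock-in allele of Opa1, the gene of a fusion protein of the inner mitochondrial membrane, with the human delTTAG deletion. All 8 were untreated, the study's methods place them at 21 days of age on a mixed C57BL/6J and 129Sv/Pas background, and the WT mice are their littermates. The cochlea is the spiral organ of hearing inside the temporal bone, so a library mixes sensory, neural, vascular, bone and blood cell RNA. The comparison asks whether the genotype alters the level of these transcripts before the hearing loss of the model begins.

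A cytosolic ribosome is built from a large subunit, which joins amino acids, and a small subunit, which reads the mRNA, and each holds ribosomal RNA and a set of proteins made in near equal numbers. The mRNAs of these proteins belong to the most abundant of most cells, and many begin with a C followed by a run of pyrimidines, the terminal oligopyrimidine (TOP) motif through which mTOR signalling sets their translation. A few genes have paralogs used in particular tissues, such as Rpl3l in striated muscle and Rpl10l and Rpl39l in male germ cells, and the genome carries many processed pseudogenes copied from ribosomal protein mRNAs.

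The libraries held between 15978051 and 20828030 counts on named genes. The large subunit took 1.16% to 1.47% of them and the small subunit 0.619% to 0.801%. Opa1 itself stood at 118.7, 125.9, 111.7 and 122.4 CPM (counts per 1000000 counts of a library, scaled between libraries by the TMM method) in the WT mice and at 63.5, 68.4, 60.4 and 70.02 in the Opa1+/- mice. The genotypes did not overlap, and the log2 fold change of Opa1+/- over WT was -0.87 (SE 0.07, adjusted p = 0.00515, edgeR quasi-likelihood test with Benjamini-Hochberg adjustment), so the labels and the targeted gene matched. The 10 hair cell markers summed to 207.4 to 292.7 CPM and the 10 spiral ganglion markers to 5444 to 6501 CPM over the 8 mice. Ddx3y, a Y-linked gene, was present in all 8 libraries at 55.7 to 70.5 CPM, and Xist did not pass 0.392 CPM in any.

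Start sites of the genes are shown first, because the TOP motif, by which this family is known, lies at the start of the mRNA. RefSeq promoter entries on GRCm38.p6 were matched by symbol for 63 of the 86 genes. In a window of 30 bases, from 10 before to 20 from the annotated start on the gene's own strand, a C followed by further C or T bases to a run of at least 6 was found in 36 of those 63 genes, 21 of 40 of the large and 15 of 23 of the small subunit. The same run was present in 24.9% of the 27025 genes with an entry, against 57.1% of the ribosomal protein genes, where a gene with several annotated starts was counted by its longest run. The windows of 3 genes with a run, chosen after their low p was seen, and of Rpl26, which has a high level and no such run, read as follows, 5′ to 3′, with the longest run of C and T that starts with a C in capitals.
Rps12, chr10:23787190-23787219, minus strand: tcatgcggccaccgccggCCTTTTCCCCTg
Rps18, chr17:33955646-33955675, minus strand: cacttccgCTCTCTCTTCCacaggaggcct
Rpl38, chr11:114668570-114668599, plus strand: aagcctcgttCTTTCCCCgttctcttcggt
Rpl26, chr11:68901556-68901585, plus strand: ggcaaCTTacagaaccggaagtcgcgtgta
A window without the run says only that these letters are not near the annotated start. A run was counted anywhere in the window, so the counts are not counts of TOP motifs.

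Ribosomal protein transcripts of both subunits lay on average slightly above WT in the Opa1+/- cochleae, and the values of single mice overlapped between the genotypes. Summed over the 53 genes of the large subunit, the level was 13774, 11809, 12403 and 11571 CPM in WT_4, WT_5, WT_6 and WT_8. It was 13145, 12346, 14549 and 14112 CPM in Het_2, Het_7, Het_484 and Het_491. The highest values belonged to Het_484 and Het_491 and the third to WT_4, so the genotypes overlapped. The means were 12389 ± 987.1 and 13538 ± 987.8 CPM (SD, n = 4 each), a ratio of 1.09 (p = 0.171, exact two-sided permutation test over the 70 arrangements, whose smallest p is 0.0286).

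The small subunit followed the same order of mice. Its 33 genes summed to 7373, 6297, 6673 and 6203 CPM in the WT mice and to 7062, 6650, 7920 and 7686 CPM in the Opa1+/- mice. WT_4 again exceeded Het_2 and Het_7. The means were 6637 ± 531.1 and 7329 ± 579.8 CPM (SD, n = 4 each), a ratio of 1.10 (p = 0.143, exact two-sided permutation test). In whole-tissue RNA such a difference cannot be told apart between more cells of a type rich in these transcripts and more of the transcripts per cell.

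**Figure D1:**
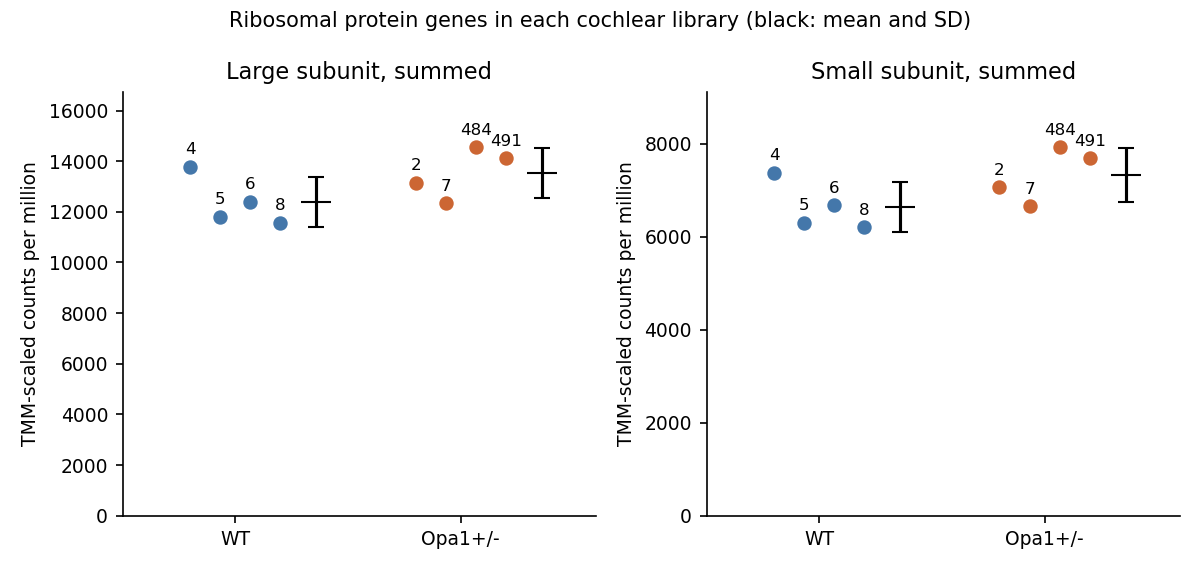
Summed TMM-scaled CPM (y axis) of the large subunit genes (left) and small subunit genes (right), with 1 point per mouse, numbered by animal, and the mean and SD of 4 mice in black. WT_4 lies at 13774 CPM for the large subunit, among the Opa1+/- mice, which span 12346 to 14549 CPM.

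The balance between subunits varied far less than their levels. The large subunit sum was 1.87, 1.88, 1.86 and 1.87 times the small subunit sum in WT_4, WT_5, WT_6 and WT_8, and 1.86, 1.86, 1.84 and 1.84 times in Het_2, Het_7, Het_484 and Het_491. All 8 ratios lay between 1.836 and 1.875, and Het_2 at 1.861 fell inside the WT range of 1.859 to 1.875. On the log2 scale the ratio differed by -0.01, Opa1+/- minus WT (p = 0.0571, exact two-sided permutation test). Without Het_2 the difference was -0.02 and the exact permutation p was 0.0286, the smallest that 4 against 3 mice allow.

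No ribosomal protein gene passed the adjusted threshold of 0.05. Of the 84 genes tested (the 2 left out, Rpl10l and Rpl39l, had a mean normalised count under 10), none was called by edgeR, DESeq2 or limma voom, and the lowest adjusted p of edgeR was 0.722. Over all 19366 genes these tools called 0.0258%, 0.119% and 0.0516%. At an unadjusted p under 0.05, edgeR placed 13 genes higher in Opa1+/- mice, 5 of the large and 8 of the small subunit, and 0 lower, where the background was 3.51% higher and 3.22% lower. Of the 13, 11 were among the 81 tested protein-coding genes, and the other two were the pseudogenes Rps4l and Rps12l1. DESeq2 gave 13 higher (2.76% of all genes) and limma voom, which here also weighted each library by its quality, 32 (5.29% of all genes), both with 0 lower. The genes share libraries and vary together, so these counts are not counts of independent events.

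The fold changes leaned one way: 80 of 84 genes lay above 0, 47 of 51 of the large subunit and 33 of 33 of the small subunit, against 50.1% of all genes tested. The median log2 fold change was 0.12 for the large and 0.14 for the small subunit, and 0.000395 for all genes. The 4 genes below 0 were Rpl21, Rpl7l1, Rpl22l1 and Rpl3l, none of them with an unadjusted p under 0.05. In 1 gene alone, Rps4l, all 4 Opa1+/- mice lay above all 4 WT mice, where 1.98% of all genes did so, and among the protein-coding genes 0 of 81 did so. In none did all 4 lie below, where 2.33% of all genes did.

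**Figure D2:**
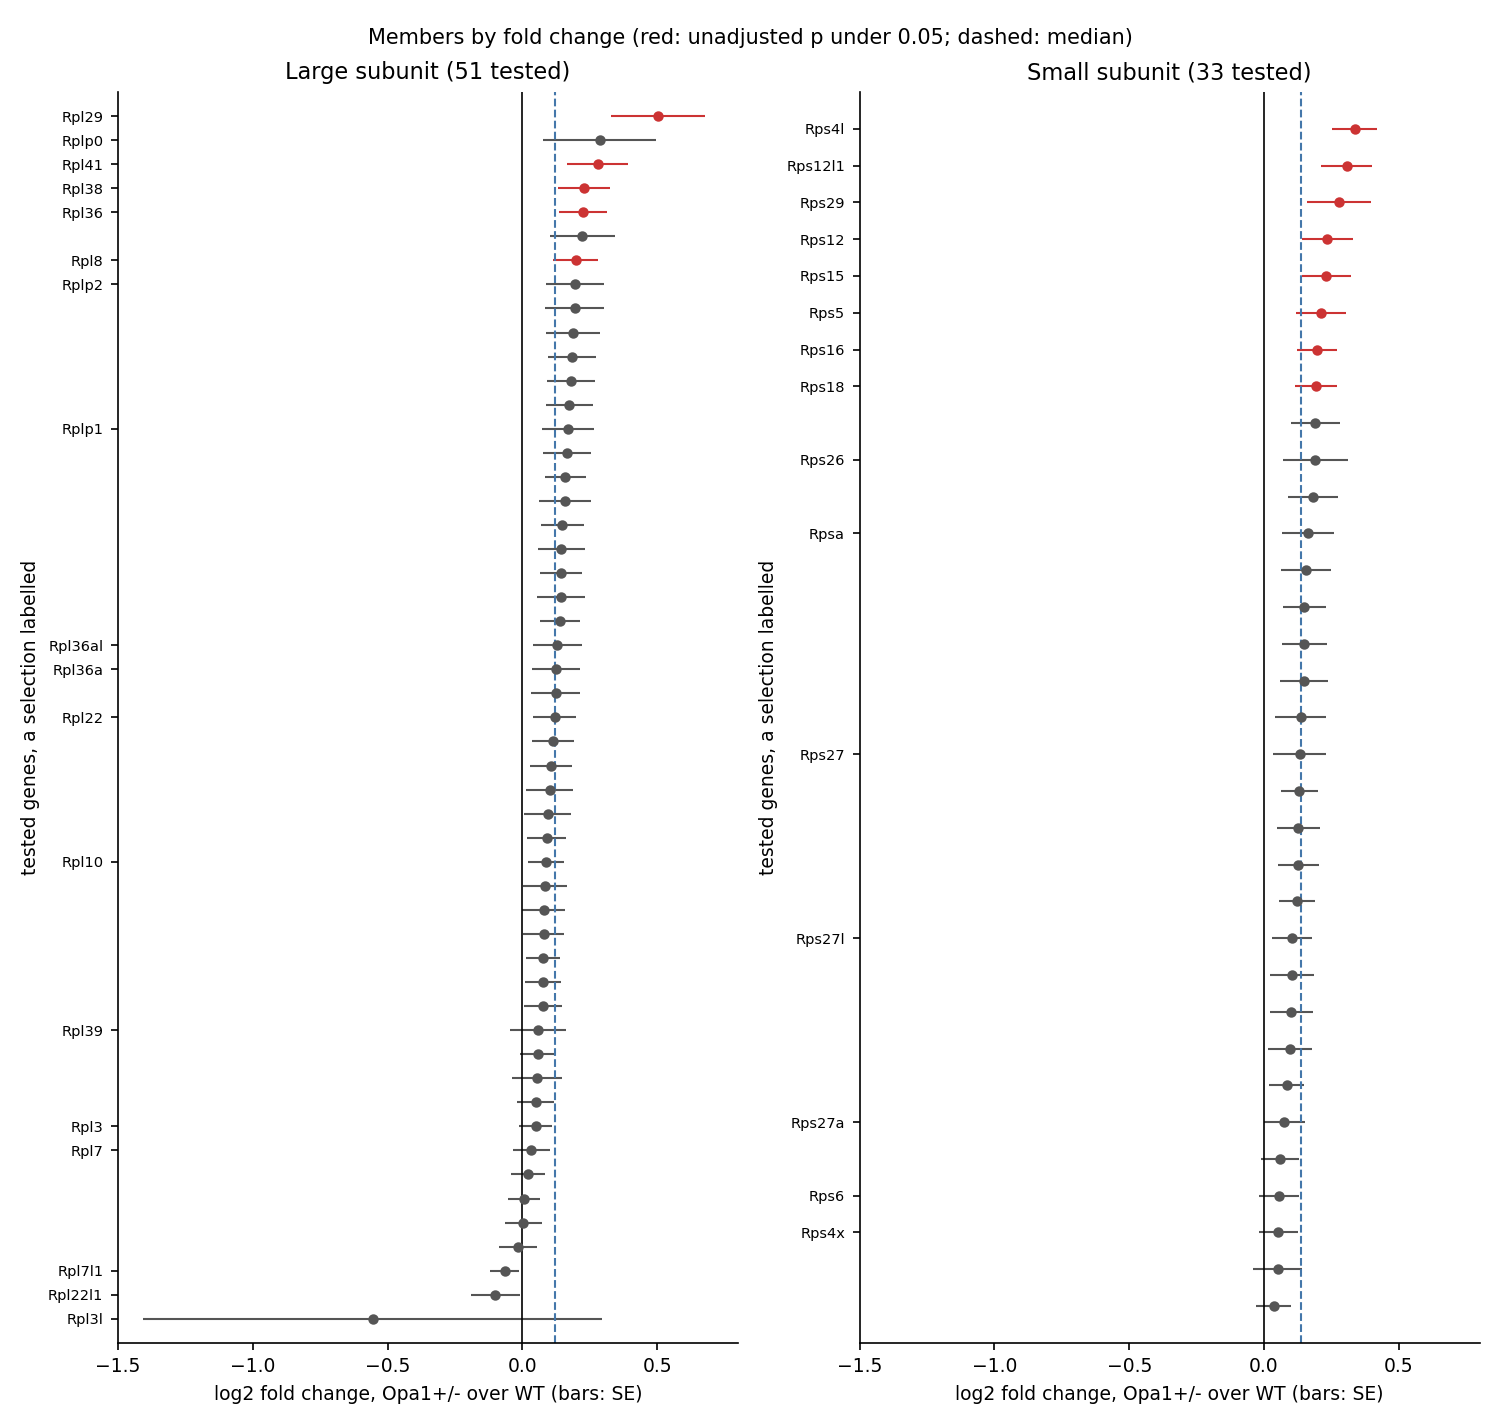
log2 fold change of Opa1+/- over WT with its SE (x axis) for each tested gene (y axis, labelled for a selection), large subunit on the left and small subunit on the right, with genes of unadjusted p under 0.05 in red and the median dashed. All 33 small subunit genes lie above 0, and Rpl3l has the widest error, with an SE of 0.85.

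The size of the lean and the number of genes under an unadjusted p of 0.05 depended on few mice. With any 1 mouse left out, between 77 (without WT_8) and 82 (without WT_6) of 84 genes still lay above 0. Relative to each gene's own mean, 76 of the 84 genes were above it in WT_4, and 6, 18 and 2 in WT_5, WT_6 and WT_8. In Het_2, Het_7, Het_484 and Het_491 the numbers were 58, 9, 80 and 77. WT_4 thus sided with Het_484 and Het_491, and Het_7 with the other WT mice. With Het_484 and Het_491 left out, which are the only ones with 3-digit animal numbers, the medians fell to 0.03 for the large and 0.05 for the small subunit, 62 of 84 genes lay above 0, and 1 gene was higher at an unadjusted p under 0.05, where 1.46% of all genes were. Without WT_4 the medians were 0.17 and 0.20 and 42 genes were higher at that p, still with no adjusted call, and the share of all genes rose to 6.03%. The number was 3, 7 and 3 without WT_5, WT_6 and WT_8, where 3.37%, 3.96% and 1.76% of all genes were higher. It was 13, 25, 2 and 4 without Het_2, Het_7, Het_484 and Het_491, where the shares of all genes were 3.48%, 3.61%, 2.93% and 2.39%. The 3 of 84 genes without WT_5 were near the share of all genes, and the 2 of 84 without Het_484 were below it. Without WT_4 and both of those Opa1+/- mice the medians were 0.08 and 0.09 and 76 of 84 genes lay above 0. In that fit 7 genes were higher at that p, beside 2.59% of all genes.

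**Figure D3:**
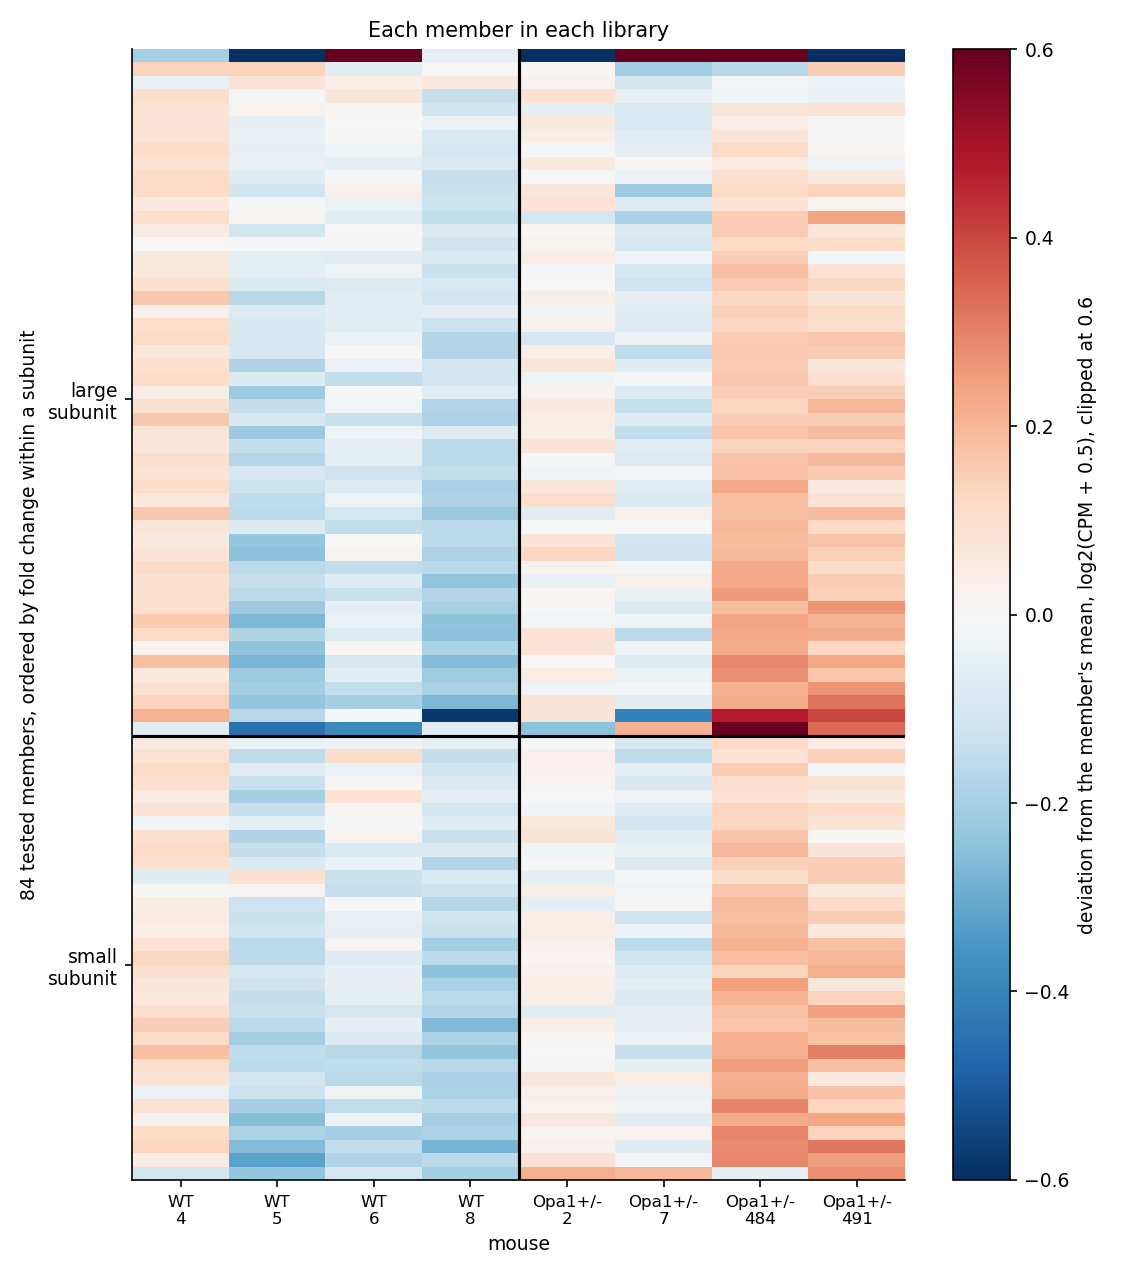
Deviation of each of the 84 tested genes (rows, large subunit above the line, ordered by fold change) from its own mean over the 8 mice (columns), on the log2(CPM + 0.5) scale, red above and blue below. The columns of WT_4 and of Het_484 and Het_491 are red almost throughout, with 76, 80 and 77 of 84 genes above their means.

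The genes moved together between mice of a genotype. The correlation of residuals between pairs of members, over the 8 mice, averaged 0.71 (median 0.825), within the large subunit 0.696, within the small subunit 0.726 and between the subunits 0.715, whereas for pairs of all genes tested the mean was 0.000157. These correlations are descriptions, since all points share the same 8 libraries and their scaling. The scaling also holds the mean over all genes near 0, and those genes were not matched to the members in count. The residual SD on the log2 scale had a median of 0.12 in each subunit, against 0.17 for all genes and 0.11 for the 633 genes with a mean count between the members' quartiles. Rpl7l1 had the lowest residual SD, 0.06, and 3 genes passed 0.3, Rpl29, Rplp0 and Rpl3l.

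Erythroid markers followed a similar order of mice, and markers of other blood cells did so in part. Of 15 erythroid markers listed, 14 had a gene row, all of them detected, and Ahsp had none. The 14 summed to 21711, 12528, 8914 and 7887 CPM in the WT mice and 15673, 15295, 18694 and 25270 CPM in the Opa1+/- mice. All 14 had a fold change above 0, none with an unadjusted p under 0.05. Over the 8 mice, the log2 sum of the large subunit correlated with that of the erythroid markers with r = 0.841 (exact permutation p = 0.0105, adjusted p = 0.0297 over 7 relations) and rho = 0.857 (exact permutation p = 0.0107, adjusted p = 0.025), and r was 0.839 without the 2 mice farthest from the median. For the small subunit r was 0.831 (exact permutation p = 0.0127) and rho 0.857. The 18 neutrophil markers, at 1599, 493.8, 511.0 and 607.3 CPM in WT and 599.3, 517.6, 972.5 and 1295 CPM in Opa1+/- mice, gave r = 0.792 with the large subunit (exact permutation p = 0.0255), but rho was 0.643 (exact permutation p = 0.0962), and 9 of the 18 had a fold change above 0. The 9 B lineage markers summed to 148.4 to 170.4 CPM in the WT and 144.4 to 167.4 CPM in the Opa1+/- mice, and 1 of the 7 tested had a fold change above 0. Most of that sum was Ebf1, at 135.4 to 145.0 CPM in the WT and 131.4 to 151.4 CPM in the Opa1+/- mice. Cd79a, the next in level, was at 10.84, 4.93, 4.84 and 4.41 CPM in WT and 5.03, 5.51, 7.98 and 6.45 CPM in Opa1+/- mice. It was thus highest in WT_4, Het_484 and Het_491, whereas Rag1 was highest in WT_4 and Het_7. For 8 proliferation markers, r was 0.680 (exact permutation p = 0.0654) and rho 0.810 (exact permutation p = 0.0218, adjusted p = 0.0305). The 8 Schwann cell markers all had a fold change above 0, 1 of them at an unadjusted p under 0.05 (3.51% of all genes), and summed to 3234 to 4423 CPM in the WT and 3887 to 5268 CPM in the Opa1+/- mice, highest in Het_2. The part of these cells' RNA in the level of the ribosomal protein genes was not tested.

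Among the large subunit genes, Rpl29, also known as a heparin-binding protein, had the lowest p and the largest fold change above 0. Its level was 131.4, 100.5, 105.4 and 131.6 CPM in the WT mice and 115.7, 158.8, 215.5 and 174.0 CPM in the Opa1+/- mice. Het_2 lay within the WT range and the other Opa1+/- mice above it. The log2 fold change was 0.50 (SE 0.17, unadjusted p = 0.0175, adjusted p = 0.722, edgeR quasi-likelihood). The 46 pseudogene entries that align to Rpl29 held 67.5% of the counts of gene and copies together, and with those copies added the fold change was 0.19.

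Rpl41, which encodes the smallest ribosomal protein, was at 628.2, 487.1, 497.6 and 474.6 CPM in the WT mice and 604.0, 546.4, 667.4 and 715.7 CPM in the Opa1+/- mice. WT_4 stood above Het_2 and Het_7, and the log2 fold change was 0.28 (SE 0.11, unadjusted p = 0.034). No pseudogene entry aligned to it. Rpl38, whose loss in mice alters the translation of Hox mRNAs, had a fold change of 0.23 (SE 0.10, unadjusted p = 0.0406), Rpl36 of 0.22 (SE 0.09, unadjusted p = 0.0331) and Rpl8, a core protein near the peptidyl transferase centre, of 0.20 (SE 0.08, unadjusted p = 0.0408). In each of these 3 genes WT_4 exceeded at least 1 Opa1+/- mouse.

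The proteins of the stalk, the flexible arm that recruits translation factors, were described apart. Rplp0, its base, had a residual SD of 0.37, with 336.7, 260.2, 289.0 and 195.1 CPM in WT and 307.9, 219.8, 406.0 and 385.1 CPM in Opa1+/- mice. The genotypes overlapped widely, and its log2 fold change was 0.29 (SE 0.21, unadjusted p = 0.201), which turned to -0.03 without Het_484 and Het_491. Rplp1 and Rplp2, the acidic proteins of the stalk, had fold changes of 0.17 (SE 0.10) and 0.20 (SE 0.11) and unadjusted p of 0.112 and 0.0999.

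Of the small subunit, Rps15, a protein of the head of the subunit, had the level 346.5, 285.9, 333.9 and 296.8 CPM in the WT mice and 356.8, 326.3, 397.6 and 401.2 CPM in the Opa1+/- mice. Het_7 lay inside the WT range, and the log2 fold change was 0.23 (SE 0.09, unadjusted p = 0.0311, adjusted p = 0.722, edgeR quasi-likelihood). Rps16 had a fold change of 0.20 (SE 0.08, unadjusted p = 0.0275) and Rps18 of 0.19 (SE 0.08, unadjusted p = 0.0319). Rps29 had 0.28 (SE 0.12, unadjusted p = 0.0412) and was, with Rps26 and Rps27, among the 3 small subunit genes of largest residual SD, 0.19, 0.19 and 0.15.

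The small subunit genes with further roles did not pass an unadjusted p of 0.05. Rpsa, also known as the laminin receptor, had a fold change of 0.16 (SE 0.10, unadjusted p = 0.127). Rps6, the substrate of S6 kinase downstream of mTOR, was at 387.2 ± 28.6 CPM in WT against 402.1 ± 24.6 CPM in Opa1+/- mice (SD, n = 4 each), with a fold change of 0.05 (SE 0.07). Rps27a, made as a fusion with ubiquitin, had 0.07 (SE 0.08). Without Het_484 and Het_491 the fold changes of Rps6 and Rps27a were both -0.01.

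Per length, the levels of the genes spanned several orders of magnitude. In CPM per kilobase of transcript the highest of the large subunit were Rpl41 at 1062, Rpl26 at 913.7 and Rpl23a at 820.9, and among the highest of the small subunit were Rps29 at 840.1 and Rps15 at 686.2. The lowest of the large subunit were Rpl10l, Rpl39l and Rpl3l, and of the small subunit Rps4l at 28.7, Rps15a at 30.6 and Rps27l at 54.2. The value of Rps15a rests on an annotated transcript of 5130 bases, although its 157 CPM are near those of other genes of the subunit.

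Paralogs, some of them known for use in few tissues, were compared with their parent genes. They lay below the parent in every pair, but by very different amounts. Rpl36al reached 207.4 CPM per kilobase beside 304.8 for Rpl36a, Rpl22l1 55.3 beside 285.9 for Rpl22, Rps27l 54.2 beside 417.7 for Rps27, and Rpl7l1, a nucleolar protein of ribosome assembly, 16.1 beside 376.7 for Rpl7. Their log2 fold changes between genotypes were 0.13 (SE 0.09) for Rpl36al, -0.10 (SE 0.09) for Rpl22l1, 0.10 (SE 0.07) for Rps27l and -0.07 (SE 0.05) for Rpl7l1, none with an unadjusted p under 0.05. The parents Rpl36a, Rpl22, Rps27 and Rpl7 had 0.12, 0.12, 0.13 and 0.03. Rps27 and Rpl7 turned below 0 without Het_484 and Het_491.

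**Figure D4:**
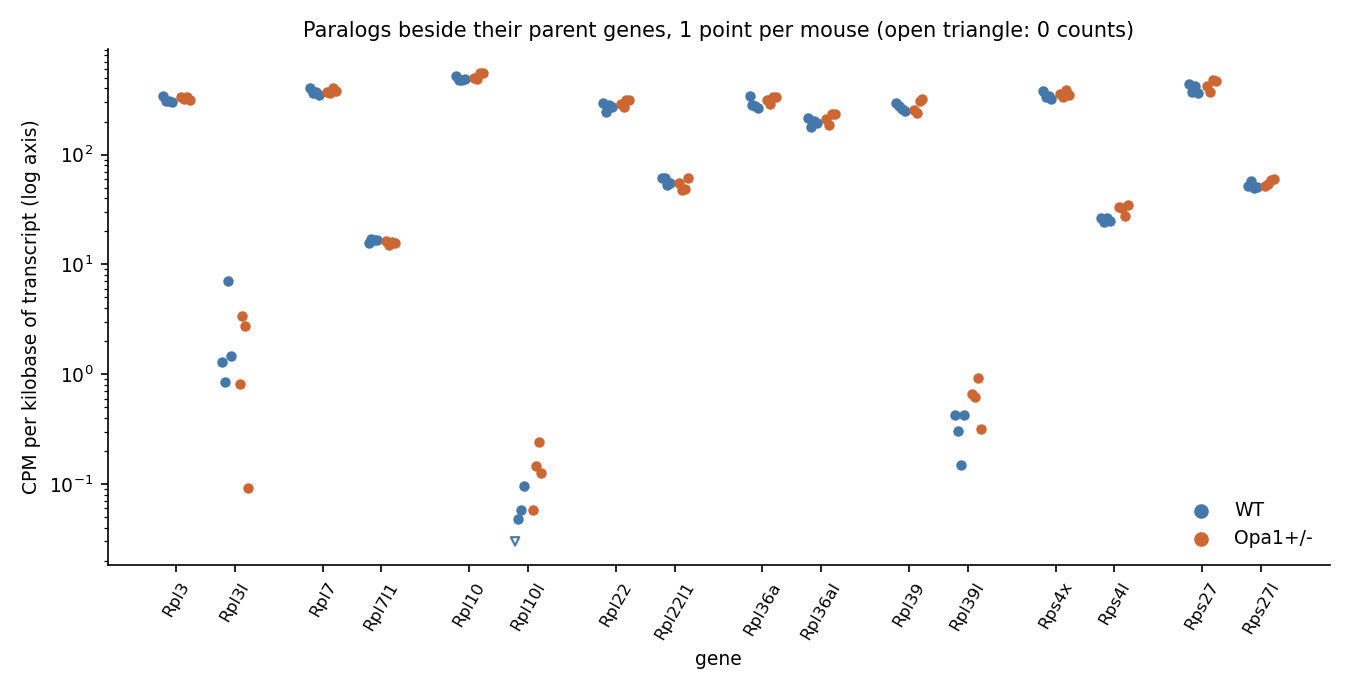
Level in CPM per kilobase of transcript on a log axis for 8 parent genes, each followed by its paralog, with 1 point per mouse (WT blue, Opa1+/- orange). Rpl10l and Rpl39l stay under 1 in all mice while their parents average 506.0 and 275.1, and Rpl3l has the widest scatter.

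The 2 germ cell paralogs were at the limit of detection. Rpl10l, an intronless copy at chr12:66283379-66284401 on the minus strand of GRCm38, had between 0 and 4 counts a library, and Rpl39l, at chr16:10170226-10174911, between 2 and 12. Rpl10l was at 0 counts in WT_4. Testis markers were also low, with 9 genes summing to at most 1.40 CPM and Tnp2 at 0 in all mice. Neither gene was tested, and no fold change is given at these counts.

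Rpl3l, the muscle paralog of Rpl3 at chr17:24727820-24736143 on the plus strand, varied more between mice than any other tested member. It was at 1.77, 1.17, 9.62 and 2.01 CPM in WT_4, WT_5, WT_6 and WT_8 and at 1.12, 4.61, 3.78 and 0.128 CPM in Het_2, Het_7, Het_484 and Het_491. The value of Het_491 rests on 2 counts. The highest value was a WT and the lowest an Opa1+/- mouse, and both genotypes held low and high mice, with a residual SD of 1.83. The log2 fold change was -0.56 (SE 0.85, unadjusted p = 0.529), and without WT_6 it was 0.57. Rpl3 itself, which binds near the peptidyl transferase centre, stood at 425.7 ± 23.2 CPM in WT against 440.3 ± 11.3 CPM in Opa1+/- mice (SD, n = 4 each).

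The 14 skeletal muscle markers, all detected, summed to 507.6, 279.3, 2700 and 673.2 CPM in the WT mice and 304.5, 1353, 1006 and 23.1 CPM in the Opa1+/- mice. The order of mice was nearly that of Rpl3l. On the log2 scale r was 0.995 (exact permutation p = 4.96e-05, adjusted p = 0.000347 over 7 relations) and rho 0.976 (exact permutation p = 0.000397, adjusted p = 0.00278), and r was 0.985 without WT_6 and Het_491. The 5 heart markers summed to 4.34 to 8.40 CPM. The part of muscle RNA in the level of Rpl3l was not tested.

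**Figure D5:**
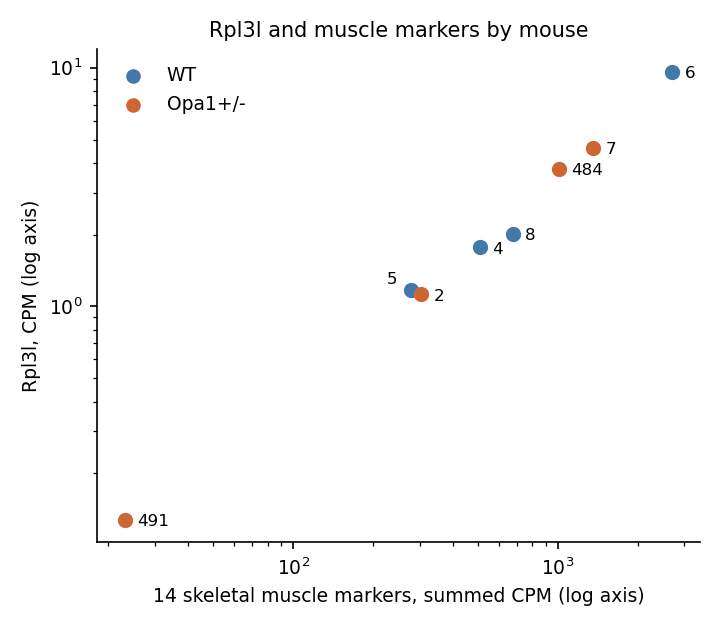
Rpl3l in CPM (y axis, log) against the summed CPM of 14 skeletal muscle markers (x axis, log), with 1 point per mouse numbered by animal, WT in blue and Opa1+/- in orange. The points run from Het_491 at 23.1 and 0.128 CPM (2 counts of Rpl3l) to WT_6 at 2700 and 9.62 CPM, with both genotypes along the line.

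Rps4l, the paralog of the X-linked Rps4x, had the lowest p of all members. It is annotated as a transcribed processed pseudogene at chr6:148354656-148355598 on the plus strand of GRCm38. It was at 20.7, 19.0, 20.9 and 19.4 CPM in the WT mice and at 26.2, 25.8, 21.7 and 27.2 CPM in the Opa1+/- mice. The genotypes did not overlap, although Het_484 was less than 1 CPM above the highest WT mouse. The log2 fold change was 0.34 (SE 0.08, unadjusted p = 0.00245, adjusted p = 0.722, edgeR quasi-likelihood), between 0.29 and 0.41 when each mouse was left out in turn, and 0.38 without Het_484 and Het_491. Its mouse order was not that of the family, since Het_484, the highest of the subunit sums, was the lowest Opa1+/- mouse here. Rps4x had 336.5 ± 24.8 and 349.2 ± 22.4 CPM (SD, n = 4 each) and a fold change of 0.05 (SE 0.07).

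The reads were 80 nucleotides long and sequenced in pairs, so a paralog can be counted apart from its parent only where the sequences differ within a read or its mate. In GENCODE vM21 sequences, the coding part of Rps4x and the transcript of Rps4l matched at 80.2% of aligned positions, with no identical stretch longer than 35 bases. The first of the stretches of 80 coding bases with the most differences, with differing bases in capitals, shows how far the pair can be told apart.
Rps4x, coding bases 36 to 115: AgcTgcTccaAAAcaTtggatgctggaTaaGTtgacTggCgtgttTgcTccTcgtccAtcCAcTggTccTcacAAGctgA
Rps4l: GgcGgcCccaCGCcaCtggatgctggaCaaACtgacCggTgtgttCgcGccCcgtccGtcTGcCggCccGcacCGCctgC
Rpl3 and Rpl3l matched at 75.3%, with no identical stretch over 22 bases, and Rpl10 and Rpl10l at 84.7% and Rpl39 and Rpl39l at 85.5%, with longest identical stretches of 23 and 38 bases.
Rpl3, coding bases 36 to 115: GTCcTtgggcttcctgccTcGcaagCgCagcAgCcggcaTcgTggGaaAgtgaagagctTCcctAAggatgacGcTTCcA
Rpl3l: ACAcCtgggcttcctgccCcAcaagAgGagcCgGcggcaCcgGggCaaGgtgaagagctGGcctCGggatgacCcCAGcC
In none of the 8 pairs of paralog and parent was an identical stretch as long as a read.

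Rps12l1 and Rpl6l were different. Both are annotated as processed pseudogenes, at chr7:56014016-56014414 and chr10:111125851-111126721 on the plus strand. Rps12l1 matched all 396 coding bases of Rps12 with 0 differences, and Rpl6l matched Rpl6 at 98.7% with an identical stretch of 354 bases. The first 80 coding bases, shown to make the identity visible, have no capitals in either gene.
Rps12, coding bases 1 to 80: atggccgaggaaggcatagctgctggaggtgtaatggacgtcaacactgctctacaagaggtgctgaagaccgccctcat
Rps12l1: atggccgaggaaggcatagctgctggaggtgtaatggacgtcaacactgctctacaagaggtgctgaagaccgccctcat
Read pairs wholly inside the coding sequence of Rps12 therefore cannot be told apart from those of Rps12l1. For Rpl6 and Rpl6l, with 11 differences in the aligned bases, this holds for the pairs inside the aligned bases that cover none of them. How such reads were assigned is not given in the sources used here. Rps12l1 was listed at 43.9, 33.8, 37.3 and 37.9 CPM in the WT mice and 45.0, 41.9, 51.7 and 50.5 CPM in the Opa1+/- mice, with WT_4 above Het_7 and a log2 fold change of 0.31 (SE 0.09, unadjusted p = 0.00945). Rps12 had a fold change of 0.23 (SE 0.09, unadjusted p = 0.0336). Rpl6l and Rpl6 had 0.08 (SE 0.08) and 0.07 (SE 0.07).

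Most of the family had similar pseudogene entries, in which identical stretches as long as a read were not sought. Of the 86 genes, 77 had at least 1 other annotated pseudogene entry aligned to their transcript over 150 bases at 90% identity or more, 819 entries in all, and in 16 genes the entries held more counts than the gene. The share was highest for Rps2 at 76.6% and Rpl21 at 73.7%. Per mouse the copies held 38.4% to 42.3% of the counts of genes and copies together. Their summed level was 14091, 12173, 11932 and 11956 CPM in the WT mice and 13136, 13661, 13984 and 15983 CPM in the Opa1+/- mice, with WT_4 above 3 of the 4 Opa1+/- mice. The means were 12538 ± 1041 and 14191 ± 1245 CPM (SD, n = 4 each; p = 0.114, exact two-sided permutation test).

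The copies had a larger median fold change than the genes. Of 703 tested, 173 (24.6%) were higher in Opa1+/- mice at an unadjusted p under 0.05 and 0 lower, against the 3.51% and 3.22% of all genes, 659 lay above 0, and the median log2 fold change was 0.25, yet none passed the adjusted threshold with edgeR or DESeq2. Annotated pseudogenes that were not aligned to a member had 113 of 1714 higher and 11 lower, with a median of 0.12. Without Het_484 and Het_491 the copies had 39 higher and 1 lower, with a median of 0.13, where 1.46% of all genes were higher. With each mouse left out alone the number higher ran from 76 without Het_491 to 284 without WT_4, where the shares of all genes were 2.39% and 6.03%, with 97, 92 and 78 without WT_5, WT_6 and WT_8 and 238, 154 and 142 without Het_2, Het_7 and Het_484. The shares of all genes in these 6 fits were 3.37%, 3.96%, 1.76%, 3.48%, 3.61% and 2.93%. With copies added to their genes, 25 of the 84 ribosomal protein genes were higher at an unadjusted p under 0.05, beside 3.09% of all genes, and the medians were 0.17 for the large and 0.16 for the small subunit.

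Ribosomal protein genes listed under other symbols were counted apart. Fau, which encodes the small subunit protein eS30, had a log2 fold change of 0.15 (SE 0.10) and Rps3a1 -0.02 (SE 0.07).

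Other genes of the translation apparatus had smaller median fold changes. Their counts at an unadjusted p under 0.05 stand beside 3.51% higher and 3.22% lower of all genes. Of 19 other genes with TOP mRNAs, most of them translation factors, 16 lay above 0, with a median of 0.06 and 1 gene under an unadjusted p of 0.05, Eif3k, a subunit of initiation factor 3 (0.14, SE 0.06, unadjusted p = 0.0316). Next in p were the elongation factor subunit Eef1d (0.18, SE 0.08) and Rack1, a small subunit scaffold listed as Gnb2l1 (0.12, SE 0.06). Of 6 noncoding host genes with TOP starts, all lay above 0, with a median of 0.11, and Snhg8 was under an unadjusted p of 0.05 (0.24, SE 0.08), followed by Snhg6 and Snhg1 with 0.16 and 0.17. Of 34 ribosome biogenesis genes 24 lay above 0, with a median of 0.03 and none under that p, the lowest p belonging to Mybbp1a (0.13, SE 0.07), Nmd3 (-0.12, SE 0.07) and Nop56 (0.14, SE 0.08). Of 18 genes of mTOR signalling to translation 7 lay above 0, with a median of -0.01, and 1 was higher and 1 lower at that p, Akt1s1 (0.18, SE 0.06) and Larp4 (-0.17, SE 0.07), with Rheb next at -0.13. None of these lists held an adjusted call.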

How the data were processed

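RNA of isolated cochleae was made into total RNA libraries with the CORALL kit and sequenced in pairs of 80 nucleotides on a NextSeq500. Per the labels and the study's methods, the authors collapsed molecular identifiers, trimmed reads and mapped them to GRCm38/mm10 with STAR after FastQC. The study names the kit maker's CORALL analysis pipeline. The counting program inside it, its annotation and its use of strand are not given in the sources used here. The deposited files hold raw counts, 1 table of 47643 gene rows per mouse. The 15 rows with a number in place of a gene symbol (0.1115% to 0.1244% of counts) were left out.

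Groups came from the genotype label. The labels name TRI Reagent or an RNeasy kit for RNA extraction without saying which library had which, and nothing says how the mice were spread over litters, so p-values measure only the spread between these mice. Counts were scaled by TMM and tested over all 19366 genes with a mean normalised count over 10 with edgeR 4.0.16 (quasi-likelihood, Opa1+/- against WT, no covariate, Benjamini-Hochberg, threshold 0.05, prior count 0.5) in R 4.3.3. The test was checked on simulated data. DESeq2 1.42.0, limma voom 3.58.1 with sample quality weights, other scalings and filters, each mouse left out, and copies added to genes were alternatives. The last, and the omission of WT_4 with both Opa1+/- mice of 3-digit number, were added after seeing the data. Sums, ratios and correlations were tested by exact permutation with scipy 1.17.1. Levels per kilobase used 1 GENCODE vM21 transcript a gene (best APPRIS level, then protein coding, best support and shortest). Copies were found with blastn 2.17.0 and pairs aligned with Biopython 1.88.

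The members and gene lists were chosen with earlier results of these data known. Members named were those of lowest p (5 for each subunit), the 3 of highest and lowest level per length and of largest residual SD, all paralogs with their parents, the untested ones, the stalk genes, Rpsa, Rps27a, Rps6 and those under other symbols, and the 3 of lowest p in each translation list. Rps12, Rpl6, Rpl6l, Rpl21 and Rps2 were named after their values were seen. Some genes that this rule names are not reported here. At these depths a member's count lay between 0 and 11213 a library. Counting error therefore limits Rpl10l and Rpl39l, and Rpl3l in its lowest mice, where Het_491 had 2 counts and Het_2 had 19. The spread between mice limits the rest.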

Additional observations from a re-analysis of the deposited data

Results flagged for a closer look

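Within a genotype, 4 values stood apart from the other 3 mice by Dixon's test at the 95% level, among 80 groups of 4 tested, where chance alone gives about 1 in 20. Rpl41 in WT_4 was at 628.2 CPM, with the other WT mice between 474.6 and 497.6 CPM. Rpl26 in WT_4 was at 519.1 CPM, with the others between 427.2 and 431.8 CPM. Rps18 in Het_484 was at 215.4 CPM, with the others between 190.9 and 194.1 CPM. Rpl3l in WT_6 was at 9.62 CPM, with the others between 1.17 and 2.01 CPM, and the same mouse had the highest sum of skeletal muscle markers, 2700 CPM.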

How the results depend on the processing

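No alternative placed a ribosomal protein gene past an adjusted p of 0.05, and no setting of the scaling, the filter or the tool turned the median of either subunit. With each mouse left out in turn, the median log2 fold change ran from 0.08 to 0.17 for the large and from 0.09 to 0.20 for the small subunit, and the difference of the log2 ratio of large to small from -0.01831 to -0.01175, past the threshold only without Het_2. Scaling by total counts alone gave medians of 0.09 and 0.11, with 4 genes under an unadjusted p of 0.05 (2.37% of all genes higher) against 13, and moved the median of all genes to -0.03. limma voom with sample quality weights gave 32 such genes (5.29%), and adding copies to genes 25 (3.09%).

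Among named genes the fold change of Rpl3l ran from -1.10 to 0.57 and of Rpl39 from -0.02086 to 0.13 with each mouse left out. Without both Opa1+/- mice of 3-digit number, the fold change turned to -0.03438 for Rplp0, -0.002434 for Rps27, -0.002294 for Rpl10, -0.1246 for Rpl39, -0.01626 for Rpl7, -0.01499 for Rps27a and -0.01296 for Rps6, and it was -0.08544 for Rpl39 with WT_4 left out too. The cause was not tested beyond the loss of samples. No paired analysis was possible because the genotypes have no number in common.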
